A study of Mus musculus with 6 samples.

Results

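The 10 SOX transcription factor genes Sox9, Sox11, Sox4, Sox2, Sox21, Sox7, Sox17, Sox18, Sox5 and Sox6 were taken by gene name from a table of 33924 gene names. All 10 were found, and 8 of them passed the low count filter and were among the 20001 genes tested. Sox11 and Sox21 did not pass it. RNA was sequenced from urethane-induced lung tumours (replicates 1, 2 and 4) and from normal lung (control replicates 1, 2 and 3) of FVB/NJ mice, an inbred strain. Urethane, a chemical carcinogen, was injected into the peritoneum at 1 g per kg, control mice received saline, and tissue was harvested at 6 months. The labels give neither the way tumour was cut from lung nor whether a library came from 1 animal or from several, so p-values measure the spread between libraries, part of which may be technical. Levels are in CPM, read counts divided by the scaled library size and multiplied by 1e6, a log2 fold change is tumour over control, and a gene was called where the adjusted p of edgeR's quasi-likelihood test over all genes was under 0.05.

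SOX genes encode transcription factors that bind DNA through a shared HMG domain. In the embryonic mouse lung Sox9 marks the distal tips from which the alveoli are built, and Sox2 marks the proximal tubes that become the conducting airways. Sox11 and Sox4, of the SOXC group, are also expressed in the developing organ, and Sox21 is found with Sox2 in the airway. Sox7, Sox17 and Sox18 form the SOXF group, which acts in endothelial cells of blood and lymphatic vessels, and Sox5 and Sox6, of the SOXD group, are partners of Sox9 in cartilage.

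Total counts were 38996532 to 62336537 reads per library, so 3 reads correspond to 0.0456 to 0.0815 CPM in 1 library. The 10 SOX genes took 0.0134% to 0.0279% of the reads. Tumour replicate 2 stood apart in sex-linked genes, with 3360 CPM of Xist against 5.82 to 32.9 CPM in the other 5 libraries, and at most 0.216 CPM of Kdm5d, Eif2s3y, Uty and Ddx3y. Defining markers of lung cell types were present in control lung: markers of club cells, the secretory cells of the airway, summed to 11110 to 17830 CPM, those of endothelium to 5209 to 6876 CPM, and those of surfactant-producing alveolar type 2 (AT2) cells to 10220 to 16880 CPM. In tumours these sums were 69.0 to 130.2 CPM, 487 to 678 CPM and 29680 to 66770 CPM. In bulk tissue, fewer cells of a type and less RNA per cell cannot be told apart.

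Of the 8 SOX genes tested, 3 rose in tumours (Sox9, Sox4 and Sox6) and 5 fell (Sox2, Sox7, Sox17, Sox18 and Sox5). Over all genes tested 42.0% were called, 18.1% higher and 23.8% lower. The CPM ranges of tumours and control lung did not overlap for any of these 8 genes. Over all genes tested 56.0% did not overlap, 26.1% higher and 29.9% lower. All 3 SOXF genes fell, while of the SOXD pair Sox6 rose and Sox5 fell. The 3 that rose and the 5 that fell were called in each of the 17 other settings of the analysis, including the fits without tumour replicate 2.

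**Figure D1:**
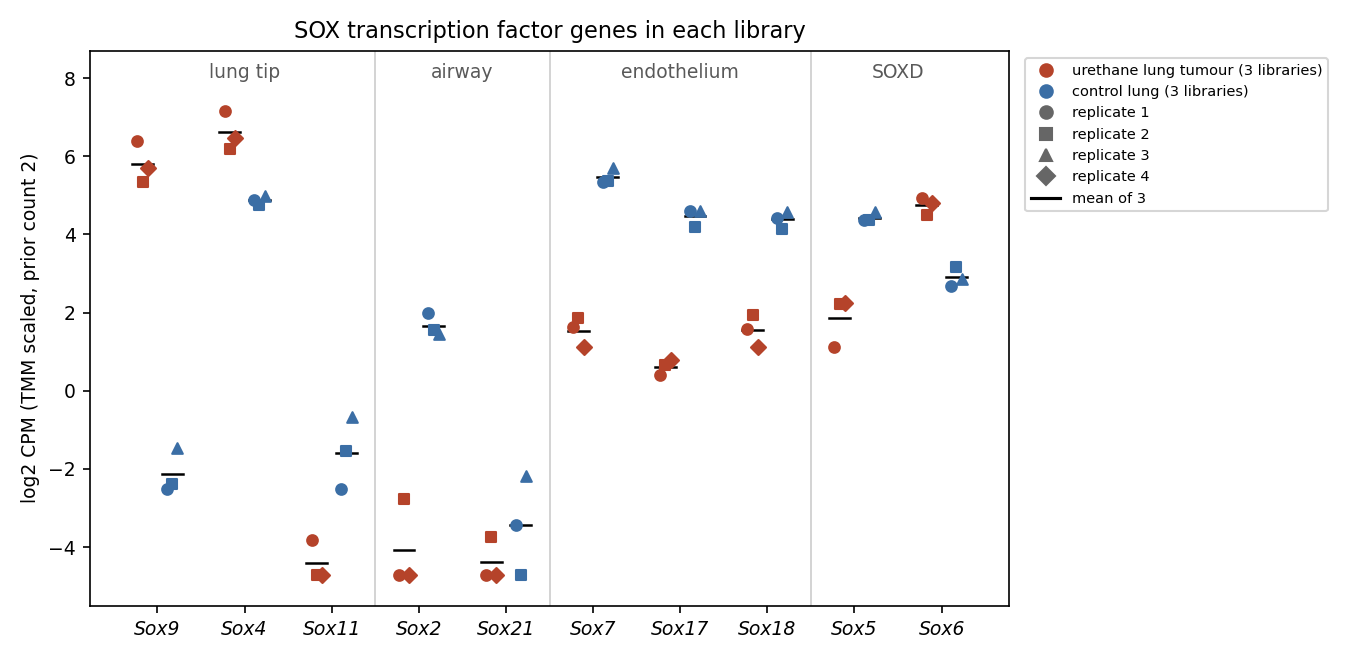
Level of each SOX gene in each library, as log2 CPM with a prior count of 2 (y axis), by gene (x axis, grouped by role). Points are single libraries with a shape for each replicate number, and black lines are means of 3. Sox9, Sox4 and Sox6 lie higher in tumours, Sox2, Sox7, Sox17, Sox18 and Sox5 lie lower, and Sox11 and Sox21 lie near the bottom of the scale in tumours.

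Promoter sequence from RefSeq (GRCm38.p6) was at hand for 6 of the 10 genes. The 250 bases upstream of the annotated start are shown for Sox2 and Sox4, an airway and a lung tip gene that moved in opposite directions. The Sox2 window lies at chr3:34649745-34649994 on the + strand and the Sox4 window at chr13:28953700-28953949 on the - strand. Capitals mark, on either strand, the SOX core motif AACAAT, the GC box GGGCGG and the CCAAT box.
Sox2: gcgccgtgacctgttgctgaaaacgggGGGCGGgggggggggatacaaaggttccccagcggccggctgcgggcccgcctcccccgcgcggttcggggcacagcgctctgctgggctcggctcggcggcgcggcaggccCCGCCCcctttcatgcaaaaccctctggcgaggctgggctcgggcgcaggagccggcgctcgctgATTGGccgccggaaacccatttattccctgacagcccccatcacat
Sox4: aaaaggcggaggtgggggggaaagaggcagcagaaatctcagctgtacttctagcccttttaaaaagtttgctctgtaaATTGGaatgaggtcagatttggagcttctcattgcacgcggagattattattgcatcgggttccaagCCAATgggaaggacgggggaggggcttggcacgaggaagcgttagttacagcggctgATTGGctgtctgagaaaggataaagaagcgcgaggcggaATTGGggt
Neither window holds AACAAT, which occurs in 9.43% of 32841 such windows of all genes, and among 11 windows of the 6 genes only 1 of the 6 Sox6 windows holds it. The Sox2 window has 2 GC boxes and 1 CCAAT box, is 72% G or C and contains 27 CpG pairs. The Sox4 window has no GC box and 4 CCAAT boxes, is 50.8% G or C and contains 11 CpG pairs. GC boxes occur in 32.7% and CCAAT boxes in 33.9% of all windows, and no motif matches overlap in these 2 windows.

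Sox9, the factor of the embryonic distal tip, had 83.1, 40.4 and 52.1 CPM in tumour replicates 1, 2 and 4, against 0.136, 0.152 and 0.325 CPM in control replicates 1, 2 and 3. The control values rest on 5, 10 and 16 reads and the tumour values on 5084, 2249 and 2403. Each tumour library thus lay more than 100 times above each control library. The log2 fold change was 8.14 ± 0.44 (SE; edgeR adjusted p = 1.39e-05, n = 3 per group), the 43rd largest of the 20001 genes tested. In the deposited table Sox9 lies on the + strand at chr11:112643538-112649074 (mm9), and none of its 4135 exon bases is shared with another gene name.

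Sox4, a SOXC factor active in many developing and epithelial tissues, had 144, 73.2 and 88.4 CPM in tumour replicates 1, 2 and 4, against 29.4, 26.9 and 31.7 CPM in control lung. All tumour libraries were above all control libraries, and replicate 1 was the highest tumour library, as for Sox9. The log2 fold change was 1.80 ± 0.25 (adjusted p = 0.000754, edgeR). Of the exon bases of Sox4, 54.6% lie inside exons of Gm17419, which is annotated on the opposite strand. Reads there were counted for both names, strand was not used, and Gm17419 rose with a log2 fold change of 1.81 ± 0.24 (adjusted p = 0.000592), so Sox4 and Gm17419 cannot be told apart over these bases.

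Sox11, the other SOXC member of the lung tip set, had 2, 0 and 0 reads in tumours and 5, 20 and 29 reads in control lung. The groups did not overlap, but the gene was too low to enter the test. Pooled over libraries and scaled to their size, tumours had 29.0-fold fewer reads (95% counting interval 7.64 to 245). Both reads came from tumour replicate 1. In its absence control lung was 12.1-fold above a floor of 3 reads over the tumour group, and the lower 95% counting limit was 9.48. In the absence of tumour replicate 2 the ratio of control lung to tumours was 19.1 (5.03 to 162). Such intervals cover counting error only. The table's model of Sox11 has 2013 exon bases where the later GENCODE M21 transcript has 8311.

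The tip genes were read beside 13 other genes of the embryonic tip, of which 10 rose, none fell and 3 were not called. Their median log2 fold change was 1.67, against 0.01 over all genes tested. General epithelial and AT2 genes, given below, had higher medians of 1.873 and 1.845, so the rise was not particular to tip genes. The largest single change in the tip list, 5.60 ± 0.41 for the ETS factor Etv4, was below that of Sox9. Etv4 averaged 24.0 ± 11.5 CPM in tumours and 0.487 ± 0.093 CPM in control lung (SD, n = 3 each; adjusted p = 3.48e-05, edgeR). Bmp4, a growth factor of the tip, rose by 1.43 ± 0.14 (adjusted p = 0.000113), and Id2, a marker of tip progenitors, by 2.52 ± 0.26 (adjusted p = 0.000147). Mycn rose by 4.78 ± 0.79 (adjusted p = 0.00172). Foxp2, Etv5 and Foxp1, other transcription factors of the tip, had log2 fold changes of 0.78, 0.37 and 0.22 and were not called.

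General epithelial genes were also higher. Of 10 pan-epithelial genes 9 rose, with Esrp1, a splicing factor of epithelial cells, at 2.32 ± 0.14 and Spint1, a membrane protease inhibitor, at 1.93 ± 0.16 (edgeR adjusted p = 1.91e-05 and 5.79e-05). All 10 AT2 markers rose, led by the transcription factor Cebpa at 2.92 ± 0.26 and Sftpd, a surfactant protein gene, at 3.01 ± 0.35 (adjusted p = 8.16e-05 and 0.000281). The summed pan-epithelial level was 1108 to 1659 CPM in tumours and 414 to 498 CPM in control lung. Sox9 and Sox4 were also set against these genes within each library, as the log2 CPM of the gene minus the mean log2 CPM of the pan-epithelial genes of the same library, a ratio that does not depend on scaling. The ratio was compared between groups, but the part of epithelial cell numbers in the SOX results was not tested. For Sox9 the ratio was -0.78 ± 0.43 in tumours and -7.01 ± 0.69 in control lung (SD, n = 3 each), a difference of 6.23 without overlap. For Sox4 it was 0.03 ± 0.39 in tumours and -0.01 ± 0.20 in control lung, a difference of 0.04 with overlapping groups. Two-sided exact permutation tests gave p = 0.1 for Sox9, the smallest that 3 against 3 libraries allow, and p = 1 for Sox4 (0.2 and 1 adjusted over the 10 ratios computed).

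**Figure D2:**
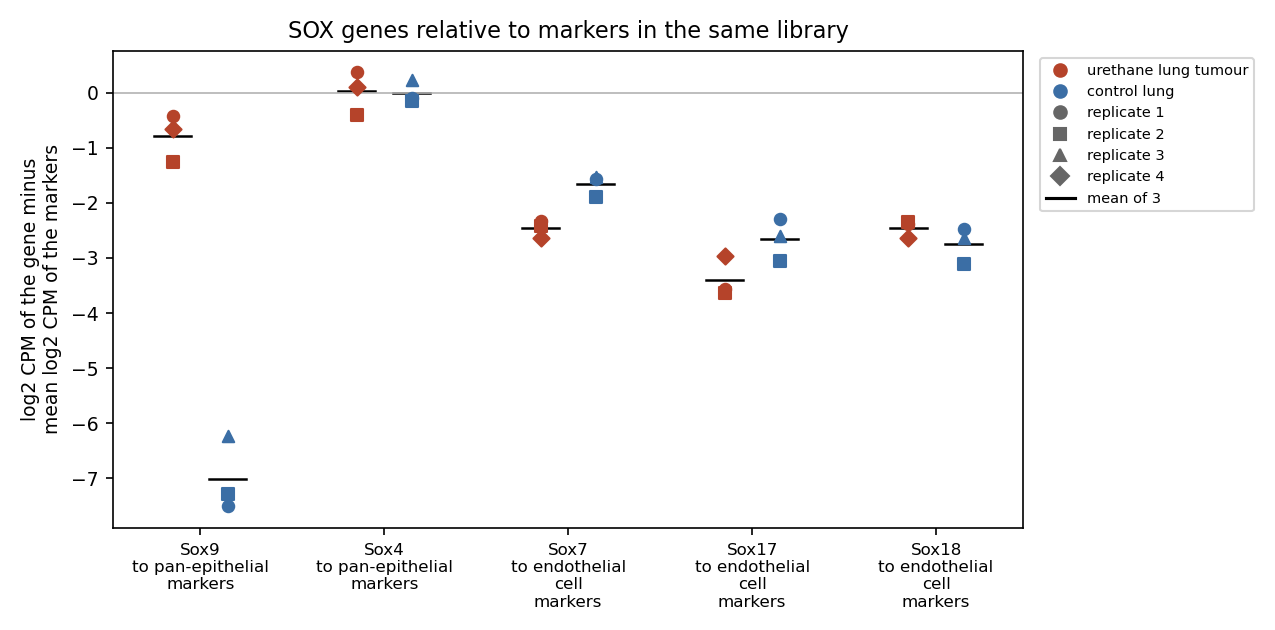
Log2 CPM of 5 SOX genes minus the mean log2 CPM of their marker list in the same library (y axis), for urethane lung tumours (left of each pair) and control lung. Points are libraries and black lines means of 3: Sox9 is 6.23 higher in tumours relative to epithelial genes, whereas Sox4 overlaps between the groups, as do Sox17 and Sox18 relative to endothelial genes.

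Sox2, the airway factor, had 0, 0.108 and 0 CPM in tumour replicates 1, 2 and 4, against 3.94, 2.92 and 2.68 CPM in control lung. The only 6 tumour reads were in replicate 2. The log2 fold change was -6.35 ± 0.87 (edgeR adjusted p = 0.00066). Without tumour replicate 2 no tumour read remained. Control lung was then 110.4-fold above a floor of 3 reads over the tumour group, without allowance for counting error in control lung. Sox2ot, a long noncoding RNA whose gene spans Sox2 but shares no exon base with it in this table, had 0, 4 and 4 reads in tumours and 34, 48 and 50 in control lung, a log2 fold change of -4.08 ± 0.72 (adjusted p = 0.00248). Sox21, an airway relative of Sox2, had 0, 2 and 0 reads in tumours and 2, 0 and 9 in control lung, which overlap and are at or under the floor of 3 reads in all libraries but 1.

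Markers of airway cells fell with Sox2. Of 13 ciliated cell genes 12 fell and none rose, with a median log2 fold change of -5.89. Foxj1, the regulator of motile cilia, averaged 0.035 ± 0.036 CPM in tumours and 13.9 ± 3.56 CPM in control lung. Dnahc5, an axonemal dynein, fell by 9.56 ± 0.44 on the log2 scale (adjusted p = 9.73e-06, edgeR), and Ccdc153 had 1 read in tumours and 2343 in control lung. Of 9 club cell genes 8 were tested and 7 fell, among them the secretory protein gene Scgb3a2 by 10.01 ± 0.27 (adjusted p = 1.60e-06) and Gabrp by 9.79 ± 0.33 (adjusted p = 3.19e-06). The mucin gene Muc5b was not called, with 42.1 ± 26.9 CPM in tumours and 38.7 ± 25.6 CPM in control lung. Of 6 basal cell genes only Trp63, a regulator of basal cells, was tested, and it was not called (0.96 ± 0.62, adjusted p = 0.254). The basal keratin gene Krt5 had 2 reads in tumours and 1 in control lung. Of 8 neuroendocrine genes 5 were tested and 4 fell, among them Resp18, with 2 reads in tumours and 56 in control lung. The fall of Sox2 lay within the airway lists: 5 of 13 ciliated and 3 of 8 club cell genes fell further. The log2 ratio of Sox2 to the ciliated list was -3.15 ± 0.89 in tumours and -3.19 ± 0.51 in control lung, and to the club list -5.61 ± 1.09 and -5.82 ± 0.54 (two-sided exact permutation p = 1 and 0.8). These ratios rest on 6 tumour reads and the prior count. The ratios of Sox11 to the pan-epithelial list (-4.54, tumour minus control) and of Sox21 to the club and ciliated lists (4.99 and 4.82) rest on 2 tumour reads each.

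Sox7, a SOXF factor of vessel formation, had 3.06, 3.59 and 2.15 CPM in tumours, against 40.4, 41.3 and 51.5 CPM in control lung. Its log2 fold change was -3.92 ± 0.24 (edgeR adjusted p = 1.85e-05). Sox17, which is required for arterial identity, had 1.27, 1.53 and 1.69 CPM in tumours, against 24.2, 18.3 and 24.4 CPM in control lung (-3.90 ± 0.23, adjusted p = 1.63e-05). Sox18, which acts upstream of Prox1 in lymphatic vessels, had 2.93, 3.79 and 2.15 CPM in tumours, against 21.5, 17.7 and 23.9 CPM in control lung (-2.83 ± 0.26, adjusted p = 9.09e-05). For all 3 genes every tumour library lay below every control library. None shares exon bases with another name, and at most 0.522% of the 32-base words of their GENCODE M21 transcripts occur in another gene.

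All 20 endothelial markers fell, with a median log2 fold change of -3.18, and 5 of them fell further than Sox7 and Sox17. Erg, an ETS factor of endothelium, fell by 3.44 ± 0.18 and the adhesion molecule Icam2 by 4.01 ± 0.21 (adjusted p = 1.39e-05 for both, edgeR). Relative to the mean of these 20 markers in the same library, Sox7 stood at -2.46 ± 0.15 log2 units in tumours and -1.66 ± 0.20 in control lung, a difference of -0.80 with no overlap. Sox17 differed by -0.74 and Sox18 by 0.28, with overlapping groups. Two-sided exact permutation p were 0.1, 0.2 and 0.3 (0.2, 0.333 and 0.429 adjusted over the 10 ratios), and since 3 against 3 libraries cannot go below 0.1, these tests could not pass the threshold. Per kilobase of exon, Sox18 was 1.95, 2.15 and 2.04 times Sox7 in tumours and 1.08, 0.873 and 0.943 times Sox7 in control lung, values picked out after they were seen and not tested.

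Markers of arterial and lymphatic vessels were mostly lower. Of 8 arterial genes 5 fell and 3 were not called. Hey1, a Notch target, fell by 3.70 ± 0.21 and the semaphorin Sema3g by 4.33 ± 0.34 (adjusted p = 1.63e-05 and 4.80e-05, edgeR), while the netrin receptor Unc5b had 16.8 ± 3.55 CPM in tumours and 12.8 ± 4.64 CPM in control lung. Of 6 lymphatic genes 5 were tested and all 5 fell. Lyve1, a hyaluronan receptor, fell by 3.62 ± 0.28 and Mmrn1 by 3.83 ± 0.40 (adjusted p = 4.36e-05 and 0.000159). Prox1, the lymphatic regulator downstream of Sox18 in mice, fell by 1.49 ± 0.46 (adjusted p = 0.0313).

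**Figure D3:**
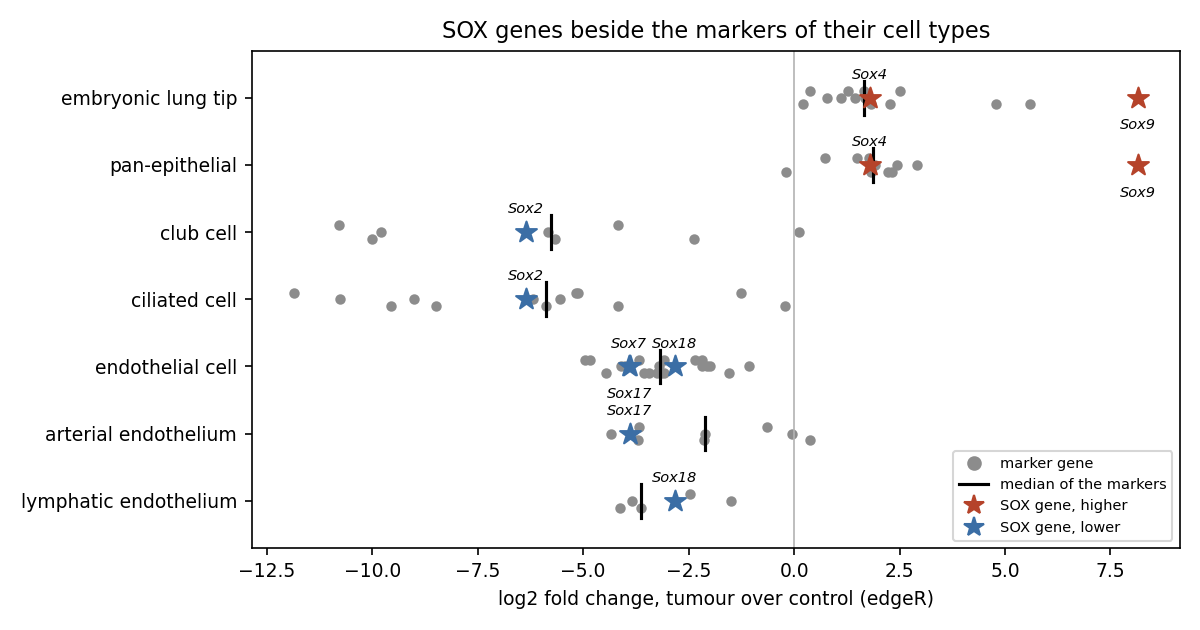
Log2 fold change, tumour over control (x axis), of marker genes (grey points, black line at the median) and of SOX genes (stars) for 7 lists of markers. Sox9 lies right of all genes of the embryonic tip and pan-epithelial lists, whereas Sox4, Sox2, Sox7, Sox17 and Sox18 lie within the spread of the lists beside which they are drawn.

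Sox6, a SOXD factor known from muscle, red blood cell and cartilage development, had 30.4, 22.5 and 28.1 CPM in tumours, against 6.33, 8.94 and 7.23 CPM in control lung. The groups were well apart, and the log2 fold change was 1.85 ± 0.20 (edgeR adjusted p = 0.000212). Sox5, its close relative, had 2.13, 4.65 and 4.69 CPM in tumours, against 20.5, 20.5 and 23.6 CPM in control lung (-2.50 ± 0.31, adjusted p = 0.000413). Tumour replicate 1 was the lowest library for Sox5 and the highest for Sox6. Per kilobase, Sox6 stood at 23.2, 7.86 and 9.74 times Sox5 in tumours and at 0.501, 0.709 and 0.497 times Sox5 in control lung. Of the exon bases of Sox5, 9.25% lie in exons of 4933415D12Rik on the opposite strand.

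Muscle and cartilage genes are associated with Sox6 and Sox5 elsewhere. All 8 cardiac genes fell, including Actc1, cardiac actin, and Myl7, an atrial myosin light chain, with 4 and 2 reads in tumours against 8600 and 4280 in control lung. Control libraries were uneven for both genes, with replicate 2 the highest. In control replicates 1, 2 and 3 Actc1 had 18.6, 89.7 and 40.9 CPM, and Myl7 had 15.9, 48.8 and 9.83 CPM. All 8 smooth muscle genes fell, with Itga8 at -6.14 ± 0.35 and the desmin gene Des at -3.70 ± 0.30 (edgeR adjusted p = 1.63e-05 and 5.71e-05). Of 13 cartilage genes known as targets of Sox9 and its SOXD partners, 7 were too low to be tested, 2 rose, none fell and 4 were not called. Those that rose were Hapln1, a hyaluronan link protein, at 3.76 ± 0.43, from 234 reads in tumours and 16 in control lung, and Matn4, a matrilin, at 1.19 ± 0.18 (adjusted p = 0.000261 and 0.00104). The untested genes had few reads and differed in direction: Acan, the main cartilage proteoglycan, had 2 reads in tumours and 7 in control lung, whereas the collagen genes Col9a2 and Col11a1 had 45 and 28 reads in tumours and 9 and 2 in control lung.

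Fibroblast, Schwann and blood cell markers, other cells a lung sample can hold, were lower as well. Of 10 fibroblast genes 9 fell, with Tcf21 at -6.28 ± 0.22 and Mfap4 at -6.16 ± 0.51 (adjusted p = 3.25e-06 and 5.80e-05, edgeR). Of 5 Schwann cell genes 3 fell, including Pmp22 and Prx at -5.15 ± 0.39 and -4.04 ± 0.39 (adjusted p = 4.08e-05 and 0.000119). Of 8 blood and lymphocyte genes 7 fell, with Cd79a, a subunit of the B cell receptor, at -3.66 ± 0.35 (adjusted p = 0.000118). Among these, the haemoglobin genes Hbb-b1 and Hba-a1 had overlapping groups. Hbb-b1 had 11.4, 311 and 36.4 CPM in control replicates 1, 2 and 3, against 12.1, 11.2 and 6.10 CPM in tumour replicates 1, 2 and 4. The part of these cell markers in the SOX results was not tested.

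The remaining SOX genes of the table numbered 9, of which 5 were tested. Sox12, the third SOXC gene, rose with Sox4: it had 22.4, 10.3 and 9.96 CPM in tumours, against 2.01, 2.64 and 3.27 CPM in control lung (2.42 ± 0.38, edgeR adjusted p = 0.00127). Sox13, the third SOXD gene, fell with Sox5, to 17.1 ± 0.475 CPM in tumours, against 46.8 ± 10.8 CPM in control lung (SD, n = 3 each; -1.46 ± 0.19, adjusted p = 0.00047). Sox8, a SOXE gene like Sox9, fell by 2.94 ± 0.76, on 10 reads in tumours and 76 in control lung (adjusted p = 0.0148). Sox30, a gene of germ cells, rose by 1.73 ± 0.57 at levels under 1 CPM (adjusted p = 0.0399), and Sox15 was not called. Sox10, a Schwann and melanocyte factor, had 26 reads in tumours and 16 in control lung, and Sry, Sox3 and Sox14 had none in any library.

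**Figure D4:**
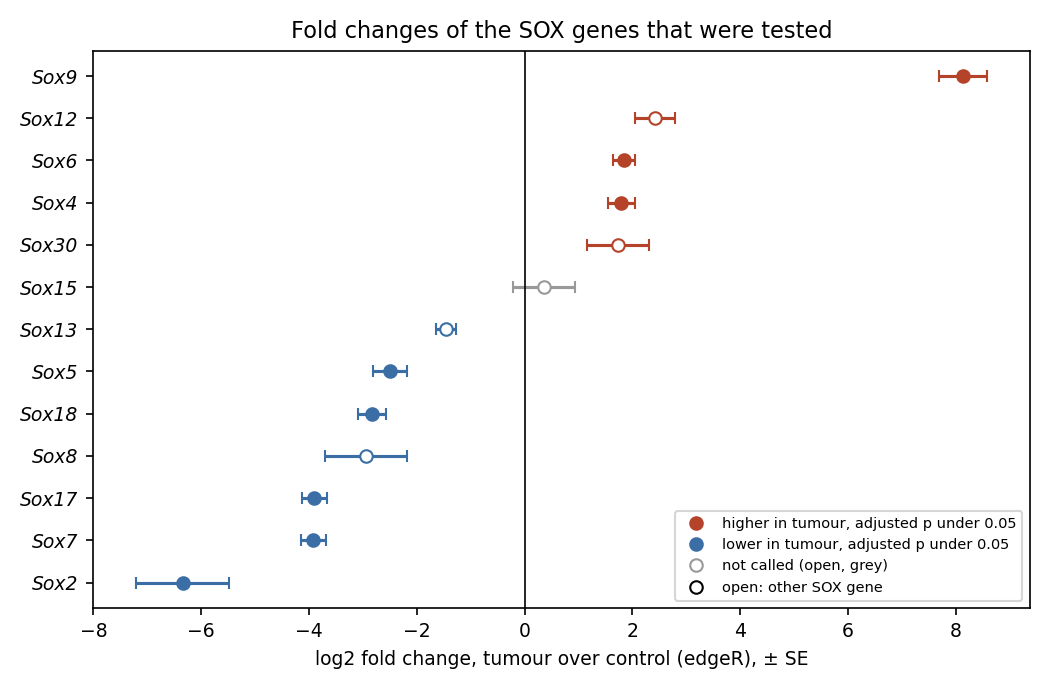
Log2 fold change, tumour over control, of the 13 SOX genes that were tested (x axis, bars are SE), ordered by size. Filled points are the 8 genes described first and open points the 5 other SOX genes: values run from -6.35 for Sox2 to 8.14 for Sox9, and Sox15 alone was not called.

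Per kilobase of exon in the deposited table, the 10 genes stood in another order in each group. In tumours Sox4 averaged 21.3 ± 7.77 and Sox9 14.2 ± 5.34 CPM per kilobase (SD, n = 3), with overlapping ranges, followed without overlap by Sox6 at 3.05, Sox18 at 1.82, Sox7 at 0.889, Sox17 at 0.475 and Sox5 at 0.266. Sox2, Sox11 and Sox21 came last of the 10 in tumours, with overlapping ranges at or near 0. In control lung Sox7 averaged 13.5 ± 1.88 and Sox18 13.0 ± 1.93, with overlapping ranges, then Sox17 at 7.08 and Sox4 at 6.11, which overlapped, and then Sox5 at 1.5 and Sox2 at 1.29, which also overlapped. Sox6 followed at 0.847. Sox11 at 0.170, Sox9 at 0.0494 and Sox21 at 0.0208 were last of the 10 in control lung, each overlapping the next. Sox9 was thus in the leading pair in tumours and among the lowest 3 of the 10 in control lung. These levels depend on the exon length used: Sox5 has 14376 exon bases in the deposited table and 7243 in the GENCODE M21 transcript, and Sox11 has 2013 and 8311. Outside the 10 genes, Sox13 averaged 3.95 and Sox12 3.40 CPM per kilobase in tumours, and 10.8 and 0.633 in control lung.

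As a share of the summed level of all 19 SOX genes in the table, Sox9 and Sox4 together with Sox11 made up 61.8% to 74.8% in tumours and 10.8% to 11.6% in control lung. Sox7, Sox17 and Sox18 made up 4.68% to 9.66% in tumours and 58.7% to 60.5% in control lung. The sum itself overlapped between the groups, at 40.5 to 67.1 CPM per kilobase in tumours and 49.8 to 64.5 in control lung. The ratio of Sox9 to Sox4 per kilobase was 0.669, 0.64 and 0.684 in tumour replicates 1, 2 and 4, although both levels varied about 2-fold between these libraries. In control replicates 1, 2 and 3 the ratio was 0.0054, 0.0066 and 0.0119, and it was not tested.

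**Figure D5:**
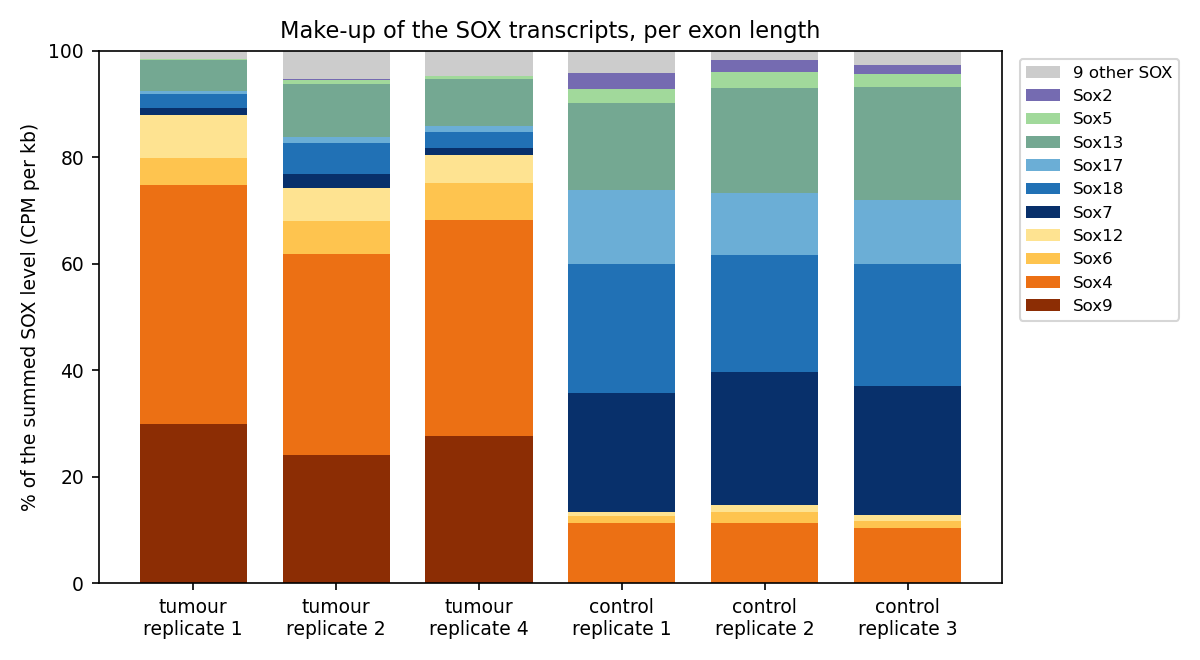
Share of each SOX gene in the summed SOX level per exon length (y axis, percent of CPM per kilobase) in each library (x axis). Sox9 and Sox4 fill most of the bar in the 3 tumour libraries, and Sox7, Sox18 and Sox17 fill most of it in the 3 control libraries.

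The genes closest to 4 of the members in profile were found by the root mean square distance of log2 CPM over the 6 libraries, each gene centred on its own mean. This is a description, and with 2 groups set apart it mainly measures the size of the group difference. Closest to Sox9 were the imprinted noncoding RNA Meg3 at 0.38 and Slc35f1 at 0.42. Closest to Sox2 were Ms4a4b at 0.28 and the zinc finger gene Zbtb16 at 0.29. Closest to Sox17 were Gnao1, a G protein subunit, at 0.13 and Pltp, a phospholipid transfer protein, at 0.21. Closest to Sox6 were Kdelr3, a receptor for retention in the endoplasmic reticulum, at 0.09 and the nectin-like receptor Pvr at 0.10.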

How the data were processed

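RNA was sequenced in 3 libraries of urethane lung tumour and 3 of control lung from mice. The deposited values are raw read counts per gene name, made by the authors with featureCounts 1.6.5 over exons of GENCODE vM1 genes, per the file headers. That command names no strand and no pair option and counts a read for every name it overlaps. The deposited table also holds exon bases per name. STAR, limma, edgeR and R 3.6.0 are listed in the submitters' processing notes, with both GRCm38 and mm9 as builds. Positions in the deposited table match mm9. Column names matched the sample titles for all 6 libraries.

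Counts were tested with edgeR 4.0.16 (R 4.3.3): filterByExpr with a minimum count of 10, TMM scaling, quasi-likelihood F test on group alone, with p-values adjusted over 20001 genes by Benjamini-Hochberg. SE come from the F statistic, and log2 CPM has a prior count of 2. Marker lists were described by counts and medians, without a set test. Counting intervals are exact binomial on pooled reads. The test was tested on simulated data. Members and lists were chosen with earlier results of these data known. The rule for named genes took every SOX gene, from each list the 2 genes of lowest p, and the 2 closest profiles to Sox9, Sox2, Sox17 and Sox6 where log2 CPM averaged 2 or more; other list genes were named after their values were seen, and some genes the rule took are not reported here. No 2 libraries of a group were alike within counting error (chi-square divided by its degrees of freedom, 59.1 to 258). Alternatives were DESeq2 1.42.0, limma-voom (limma 3.58.1), other scalings, filters and thresholds, each library left out, and a replicate block. Exon overlap was computed from the deposited table, and shared sequence from GENCODE M21 transcripts.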

Additional observations from a re-analysis of the deposited data

How the results depend on the processing

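All 8 calls on SOX genes kept their direction and passed under all 17 alternatives, at the highest adjusted p with the replicate block: 0.00396 for Sox9, 0.0182 for Sox4, 0.0283 for Sox6, 0.026 for Sox2, 0.00439 for Sox7, 0.00576 for Sox17, 0.0121 for Sox18 and 0.0148 for Sox5. Log2 fold changes of Sox9 ranged from 7.84 to 8.66, of Sox4 from 1.49 to 1.99 and of Sox2 from -10.36 (without tumour replicate 2) to -5.69. Without a low count filter Sox11 had -4.59 ± 1.05 (edgeR adjusted p = 0.00616) and Sox21 -2.43 ± 1.58 (adjusted p = 0.283). With 1 library left out, 8 to 9 SOX genes were called. The added gene was Sox11, which passed the low count filter without tumour replicate 1, 2 or 4 or control replicate 1.

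The count of changed genes was 8397 (3627 higher, 4770 lower). It was 3965 (1056 and 2909) against a 2-fold threshold and 3641 (1092 and 2549) with the replicate block, and at an adjusted p under 0.01 2073 rose. Leaving out 1 library gave 6421 to 9436. Replicate numbers 1 and 2 occur in both groups, but the labels tie no samples. Deviations of the same-numbered libraries correlated at -0.18 and -0.01, so the block rests on a shared number only. Tumour replicate 4 and control replicate 3 had no library of the same number in the other group. Under the block the group difference therefore rested on replicates 1 and 2 of each group. The share of higher calls was 43.2%, and 33.6% with library totals only, which moved the median of all genes to -0.10 from 0.01.

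Ratios to marker lists near 0 turned sign in some settings. With the list median in place of its mean the difference was -0.059 for Sox18, -0.18 for Sox4 and -0.64 for Sox2 to the club list. With the mean these were 0.28, 0.035 and 0.21. With a prior count of 0.5 the difference was -1.12 and -0.87 for Sox2 to the club and ciliated lists. Leaving out 1 library gave -0.14 to 0.25 for Sox4, and -0.37 to 0.70 and -0.47 to 0.33 for Sox2 to the same lists. Other ratios moved but kept their sign: Sox7 from -0.80 to -1.14 with the list median, and Sox11 from -4.54 to -5.97 with a prior count of 0.5. The cause was not tested. Depth limits Sox2, Sox11 and Sox21, whose tumour values rest on 6 reads or fewer.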
